A study of Mus musculus with 23 samples.

Results

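The 83 genes described here encode proteins of the cytosolic ribosome. They were taken from the 32285 genes of the feature lists by symbol alone, as the rows named Rps or Rpl with the usual ribosomal numbering, plus Rpsa and the stalk genes Rplp0, Rplp1 and Rplp2, leaving out pseudogenes with the suffix -ps and the Rps6k kinases. Of these, 32 belong to the small subunit and 51 to the large subunit. The symbol rule misses a few ribosomal protein genes with other names, such as Fau and Rack1. Counts summed over cells came from 11 gene-expression libraries of c-Kit+ Sca1+ Lineage- (KSL) bone marrow cells, the mouse fraction that holds hematopoietic stem cells and multipotent progenitors.

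All mice carried Mx1-Cre, a recombinase transgene whose interferon-responsive promoter acts in blood cells and in other tissues, and the label that names it is shared by the Controls. Ezh2 KO mice had floxed Ezh2, the enzyme of Polycomb repressive complex 2 that methylates histone H3, and Jarid2 KO mice had floxed Jarid2, an accessory subunit of the same complex. At baseline, libraries came from untransplanted mice aged 2 months, and each of the 3 genotypes (Control, Ezh2 KO, Jarid2 KO) had a male library as replicate 1 and a female one as replicate 2. The transplant experiment used CD45.2+ donor KSL cells taken 18 weeks after 500000 donor marrow cells had been given with an equal number of CD45.1 competitor cells to lethally irradiated recipients, with 1 Control, 2 Ezh2 KO and 2 Jarid2 KO libraries whose sex is not given. How many animals were pooled into a library is not given, and with so few libraries the p-values measure the spread between these samples only.

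Each library kept 4489 to 9234 cells and between 69867274 and 127115974 unique molecular identifiers (UMIs), each of which marks 1 captured RNA molecule. Ezh2 was lower in both Ezh2 KO libraries than in Control at baseline (162 and 148 against 208 and 193 CPM, UMIs scaled to a common library total) and after transplantation (38.9 and 47.1 against 184 CPM). Jarid2 was not lower in the libraries labelled Jarid2 KO (215 and 204 CPM against 159 and 150 in Control at baseline, 56.9 and 57.1 against 38.6 CPM after transplantation). Where these reads lie relative to the floxed part of the gene is not given here. The Jarid2 level therefore does not check the deletion, and why it was not lower was not tested. The kept cells carried the transcripts of the sort, with the T cell gene Cd3e and the neutrophil gene Ly6g at or near 0 in every library. Markers of granulocyte precursors (7 genes, Mpo and Elane among them) summed to 437 to 824 CPM at baseline and to 8088 to 16821 CPM after transplantation, so the libraries of the 2 experiments differ in the cells they hold. Barcodes above the mitochondrial limit made up 2.82% to 5.82% of the baseline and 25.7% to 43.4% of the transplant barcodes. By Xist and Y-linked transcripts, 59.5% of cells in the transplant Control and 48.2% and 49.6% in Jarid2 KO carried female transcripts only, against 0.0159% and 0.05% in Ezh2 KO, so sex and genotype differ together there. Any pair of libraries of 1 experiment shared at most 31 cell barcodes. Differences in a sum over cells cannot tell a changed mix of cells from a changed level in each cell.

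A ribosome joins a small subunit, which decodes the messenger RNA, to a large subunit, which forms peptide bonds. Each subunit holds ribosomal RNA and many proteins that are needed in nearly equal amounts, and many of their messenger RNAs begin with a 5′ terminal oligopyrimidine (TOP) tract through which mTOR signalling controls their translation. Proteins of the MYC family, Mycn among them, raise transcription of ribosomal RNA, of ribosomal proteins and of ribosome assembly factors in many growing cells, while blood stem cells are known for a low rate of protein synthesis. Loss of 1 copy of several ribosomal protein genes causes Diamond-Blackfan anemia in people, and free Rpl5 and Rpl11 bind Mdm2 and so stabilise p53.

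A TOP tract lies at the very start of a transcript, so the annotated starts of the members are shown. RefSeq promoters (GRCm38.p6) were matched by symbol for 63 of the 83 members, and the windows below hold 30 bases around the first-listed start of each gene, from upstream promoter sequence into the first exon, on the strand of the gene and with the longest run of C and T in capitals. Rps27, Rpl38 and Rplp2 show long pyrimidine runs at the start. Rps28 and Rpl41, which varied most between transplant libraries, have short ones, as does Rplp0, which went against Rplp2. Wide spread was not limited to short runs, since Rpl35 (run of 18 bases) varied 2.12-fold there and Rplp2 (run of 10 bases) 2.09-fold. A link between run and spread was not tested. Rps27l, Rpl39 and Rpl39l allow the paralogs to be compared, and Rps2 fell in Mycn-positive cells of both experiments.
Rps27, chr3:90213634-90213663, minus strand: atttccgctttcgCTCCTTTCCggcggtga
Rpl38, chr11:114668565-114668594, plus strand: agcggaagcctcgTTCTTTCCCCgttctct
Rplp2, chr7:141447636-141447665, plus strand: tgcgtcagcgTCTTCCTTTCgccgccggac
Rps28, chr17:33824548-33824577, minus strand: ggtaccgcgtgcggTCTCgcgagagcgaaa
Rpl41, chr10:128549154-128549183, minus strand: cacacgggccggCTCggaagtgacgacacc
Rplp0, chr5:115559452-115559481, plus strand: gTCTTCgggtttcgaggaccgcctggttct
Rps27l, chr9:66946071-66946100, plus strand: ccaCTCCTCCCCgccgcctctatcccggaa
Rpl39, chrX:37085208-37085237, minus strand: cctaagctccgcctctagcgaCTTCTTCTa
Rpl39l, chr16:10170213-10170242, plus strand: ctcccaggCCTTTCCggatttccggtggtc
Rps2, chr17:24720048-24720077, plus strand: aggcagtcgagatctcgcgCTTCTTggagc

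In the window of the first-listed start, the longest run of C and T had a median of 6 bases over the 63 members against 4 over 27025 genes. A run of 8 or more bases was present in 25 members (39.7%), against 11.9% of all genes. The window spans both sides of the annotated start, which was not checked against measured transcript ends. A run in it need not open the transcript, and shorter tracts are not counted. These counts therefore do not tell which members carry a TOP tract. Several starts are listed for 10 of the 63 members (15.9%) and 15.4% of all genes, and the following counts take a gene as a match when any of its starts holds the sequence. Counted so, a run of 8 or more was present in 27 members (42.9% against 13.9%). The motif CTTTCC on the sense strand within 10 bases of a start was present in 9 members (14.3%) and in 1.03% of all genes, and CTTTTC in 3 members (4.76%) and 0.784% of all genes. Together these 2 motifs marked 12 members (19.0% against 1.79%, or 10 members, 15.9% against 1.48%, by the first-listed start, where Rpl34 and Rpl35a have neither), which were Rpl12, Rpl15, Rpl18, Rpl27a, Rpl28, Rpl34, Rpl35, Rpl35a, Rpl38, Rpl39l, Rps10 and Rps27. In the wider window from 250 bases before to 50 bases after the start, searched on both strands, CCGGAAG, a core sequence of ETS factors, was found in 26 members (41.3% against 9.93% of all genes) and ATGGCG in 21 members (33.3% against 10.2%). CACGTG, the palindromic E-box that MYC proteins bind, was found in 6 members (9.52% against 8.09% of all genes), namely Rpl13a, Rpl14, Rpl19, Rpl23, Rpl34 and Rps19. These matches describe letters in a window and were not compared with binding data.

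At baseline the members' share of all UMIs was highest in Jarid2 KO. The 83 members together took 23.9% and 24.5% of UMIs in Control, 24.3% and 24.0% in Ezh2 KO, with 25.3% and 25.5% in Jarid2 KO. Both Jarid2 KO libraries lay above all 4 others, by 1.17 percentage points over Control on average (25.4% ± 0.148 against 24.2% ± 0.395, SD, n = 2 each), while Ezh2 KO (24.2% ± 0.202, SD, n = 2) overlapped with Control. The summed level of the 9 HSC markers, all detected in every library, was also highest in Jarid2 KO (1553 and 1579 CPM, against 1352 and 1339 CPM in Control and 1078 and 1233 CPM in Ezh2 KO), and its part in the share was not tested. With 2 libraries a group no exact permutation test can pass a threshold of 0.05, and none was made on this share. After transplantation the share was 31.2% in Control, 29.2% and 27.8% in Ezh2 KO, with 32.3% and 25.6% in Jarid2 KO. Both Ezh2 KO libraries were below the single Control, whereas the 2 Jarid2 KO libraries lay on either side of it, so that their mean of 28.9% ± 4.69 (SD, n = 2) describes neither. The Ezh2 KO difference from Control was -2.65 percentage points, and -1.27 with no filter on cells. Counting error was small beside these gaps, with Wilson 95% intervals of ± 0.0109 percentage points or less that cover counting error only.

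**Figure D1:**
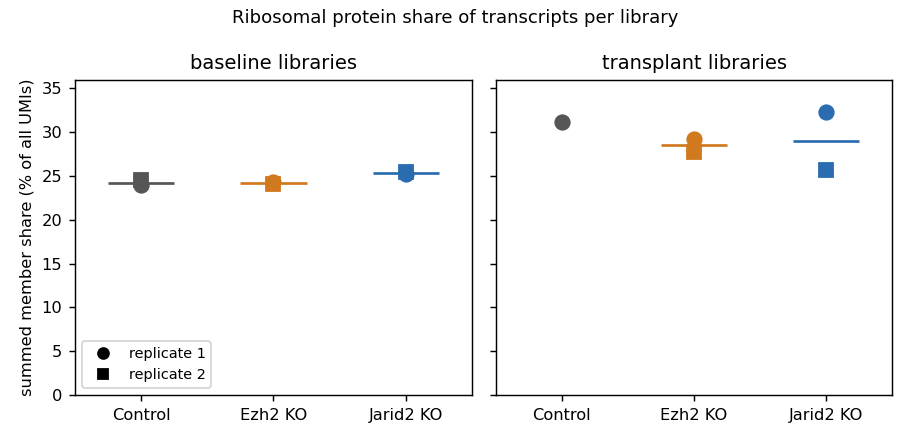
Share of all UMIs taken by the 83 ribosomal protein genes in each of the 11 libraries (percent, vertical axis), 1 point per library, by genotype and experiment, with a line at the mean of 2 libraries. The 2 baseline Jarid2 KO points (25.3% and 25.5%) lie above the other 4 baseline points, and the 2 transplant Jarid2 KO points (32.3% and 25.6%) lie on either side of the Control (31.2%).

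Mycn rose in Jarid2 KO cells in both experiments. Its level was 27.3 and 29.1 CPM in baseline Control, 28.6 and 34.4 CPM in Ezh2 KO, and 46.2 and 54.8 CPM in Jarid2 KO. In the edgeR quasi-likelihood test the Jarid2 KO difference was 0.86 on the log2 scale (SE 0.05, adjusted p 0.046), and the Ezh2 KO difference was 0.20 (adjusted p 0.11). After transplantation Mycn was 6.33 CPM in Control, 27.7 and 27.5 CPM in Ezh2 KO, and 16.7 and 19.5 CPM in Jarid2 KO, with log2 differences from Control of 2.04 (adjusted p 0.0011) and 1.46 (adjusted p 0.018). The baseline Jarid2 KO libraries were thus high in Mycn and in member share, while the 2 transplant Ezh2 KO libraries had the highest Mycn of their experiment and a member share under that of Control.

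In baseline Jarid2 KO against Control, no member passed the threshold (false discovery rate 0.05, edgeR, Benjamini-Hochberg over all 18183 genes tested), and 0.033% of all genes did. Of the 83 members 82 passed the filter on low counts, and Rpl10l, a testis copy of Rpl10, had 0 UMIs in every library, which allows a level of up to 0.0429 CPM. The shift was small and mostly upward. Of the 82 members, 69 had a positive log2 difference, with a median of 0.099 against 0.0014 over all genes, and 23 (28.0%) had an unadjusted p under 0.05, as did 11.5% of all genes. DESeq2 called 5 members higher, where it called 1.39% of all genes, 0.665% higher.

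The 4 smallest p-values, which all missed the threshold in edgeR, belonged to Rps28, Rpl37a, Rpl36a and Rps29. Rps28, a short protein at the exit channel of messenger RNA on the small subunit, was at 1395 and 1302 CPM in Control, 1492 and 1339 CPM in Ezh2 KO, and 1636 and 1540 CPM in Jarid2 KO. The Jarid2 KO libraries were highest, with a log2 difference of 0.26 from Control (SE 0.048, edgeR adjusted p 0.23). The large-subunit zinc-binding protein Rpl37a was at 2271 and 2076 CPM in Control and 2551 and 2465 CPM in Jarid2 KO (log2 difference 0.23, edgeR adjusted p 0.24). Rpl36a was at 1427 and 1446 CPM in Control and 1659 and 1652 CPM in Jarid2 KO (0.23, edgeR adjusted p 0.26), and Rps29 was at 2597 and 2204 CPM in Control and 2855 and 2741 CPM in Jarid2 KO (0.25, edgeR adjusted p 0.28). In these 4 genes the Control and Jarid2 KO libraries did not overlap. DESeq2 called the same 4 and Rpl37.

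Counted by CPM, Jarid2 KO and Control libraries did not overlap in 44 members that were higher in Jarid2 KO (15.7% of all genes were so placed) and in 6 that were lower (20.9% of all genes). The 6 lower members were Rpl7a, Rps3a1, Rpl5, Rps3, Rpl15 and Rpl3, with log2 differences between -0.09 for Rpl5 and -0.01 for Rpl3 that passed no test. The Jarid2 KO difference was also measured, as an addition made after the data had been seen, within surface gates set on the antibody signals of CD150, CD48 and CD135. No member was called in any of the 4 gates, where 0.0497%, 0.047%, 0.145% and 1.4% of all genes were called in the HSC, MPP2, MPP3 and MPP4 gates, and positive differences were found for 73 of 81 members in the stem cell (HSC) gate, 78 of 80 in the MPP2 gate, 67 of 82 in the MPP3 gate and 60 of 82 in the MPP4 gate, with medians of 0.11, 0.16, 0.093 and 0.084. The medians over all genes within the gates are not given here. MPP2, MPP3 and MPP4 are multipotent progenitors biased toward megakaryocyte and erythroid, myeloid, and lymphoid output. In each of the 4 gates the members' share in the Jarid2 KO libraries exceeded the mean of the Control libraries. Shares in the HSC gate were 24.7% to 24.8% in Control and 25.9% to 26.5% in Jarid2 KO, and in the MPP4 gate they were 24.4% to 24.8% and 25.5% to 25.8%. In the MPP3 gate the 2 groups overlapped (22.8% to 24.3% against 23.9% to 24.5%). Ezh2 KO shares in the HSC gate (24.9% to 25.4%) also lay above the Control libraries. The Ezh2 KO mean exceeded that of Control, with overlap of libraries, in the MPP2 gate (23.9% against 23.7%) and the MPP4 gate (24.9% against 24.6%). In the MPP3 gate it was lower (23.1% against 23.5%). A higher share within gates was thus not limited to Jarid2 KO, whose mean was the highest in each gate.

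In baseline Ezh2 KO against Control, 1 member was called, Rpl3l, where 3.51% of all genes were called, 2.84% higher and 0.676% lower. Rpl3l is the striated muscle copy of Rpl3 and was scarce in all libraries, with 84 and 44 UMIs in Control, 308 and 169 in Ezh2 KO, with 50 and 47 in Jarid2 KO (0.996, 0.446, 2.42, 1.48, 0.55 and 0.485 CPM). Both Ezh2 KO libraries lay above the rest, with a log2 difference from Control of 1.52 (SE 0.25, edgeR adjusted p 0.047) and from Jarid2 KO of -1.89 for Jarid2 KO minus Ezh2 KO (SE 0.26, edgeR adjusted p 0.030). The latter was the single member called in that contrast, where 5.86% of all genes were called. The call against Control was lost when either Control or either Ezh2 KO library was left out (log2 difference 1.23 to 1.87), and DESeq2 made it as well (adjusted p 0.0053). The 8 B-lineage markers, all of them detected in every library, summed to 1027 and 307 CPM in Control, 2927 and 1574 CPM in Ezh2 KO, and 444 and 434 CPM in Jarid2 KO, which is the order of Rpl3l over the 6 libraries, and their part in the result was not tested. Within the HSC gate, where these markers summed to 25.8 to 69.2 CPM, Rpl3l was at 0 to 0.18 CPM in all 6 libraries.

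No other member passed in Ezh2 KO, where 56 of 82 differences were positive with a median of 0.042. The next was Rps27l, a copy of Rps27 known as a p53 target, at 312 and 396 CPM in Control, 412 and 452 CPM in Ezh2 KO, and 341 and 371 CPM in Jarid2 KO. Ezh2 KO and Control did not overlap, and the log2 difference of 0.34 (SE 0.07) missed the threshold in edgeR (adjusted p 0.074) and passed it in DESeq2 (adjusted p 0.00049). DESeq2 called 8 members higher in Ezh2 KO, where it called 7.48% of all genes, 5.63% higher. Beside Rps27l and Rpl3l these included Rpl22, Rpl27, Rps15a, Rpl22l1 and Rplp2, with log2 differences of 0.15 to 0.25. Rpl22 binds RNA and is known for its part in lymphocyte development, and it was at 1683 and 1796 CPM in Control and 1985 and 1917 CPM in Ezh2 KO. By CPM, 13 members were higher without overlap in Ezh2 KO (17.5% of all genes) and 20 were lower (30.5% of all genes), the latter including Rpl3, Rpl4, Rpl5, Rpsa and Rps3.

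Of 10 genes known to respond to p53, 4 were higher in baseline Ezh2 KO, Phlda3 (1.32), Zmat3 (1.26), Cdkn1a (1.18) and Trp53inp1 (0.47, all on the log2 scale, edgeR adjusted p 0.019 to 0.043), and 2 after transplantation, Zmat3 (1.47) and Phlda3 (0.90), where 2.84% and 3.37% of all genes were higher. Other cells moved with this contrast. At baseline the B-lineage marker sum was 2927 and 1574 CPM in Ezh2 KO and 1027 and 307 CPM in Control, and the sum of 8 cycling markers was 1470 and 1201 CPM against 1013 and 896 CPM, and their part was not tested. Between the surface gates at baseline, 3 of the 10 were lower in the HSC gate than in the MPP4 gate, Cdkn1a (-1.68), Phlda3 (-1.44) and Trp53inp1 (-0.64), and 3 were higher, Eda2r (2.12), Zmat3 (0.34) and Ccng1 (0.20), where 30.8% of all genes were lower and 30.2% higher. None of the 10 was called in Jarid2 KO against Control in either experiment. In the contrast of sex at baseline, no member was called by edgeR, where 0.599% of all genes were called, with 11 members (13.4%) at an unadjusted p under 0.05 and 20.7% of all genes. DESeq2 called 3 higher in females, Rps2, Rps27l and Rpl39l, where it called 5.43% of all genes, 2.4% higher.

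In the members, transplanted libraries spread more widely than baseline libraries. The same spread over all genes is not given here, so it is not read as particular to the members. Over the 80 members with a mean of at least 10 CPM, the highest library exceeded the lowest by a median of 1.14-fold among 6 baseline libraries and by 1.57-fold among 5 transplant libraries. None exceeded 2-fold at baseline and 9 did after transplantation, led by Rpl41 (2.53-fold), the smallest ribosomal protein. Rpl41 was at 3332 CPM in transplant Control, 1666 and 2336 CPM in Ezh2 KO, and 4211 and 1713 CPM in Jarid2 KO, against 1593 and 2030, 1972 to 2205, and 2144 and 2202 CPM in the same genotypes at baseline. Both Ezh2 KO libraries were below Control, and the 2 Jarid2 KO libraries lay on either side of it.

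**Figure D2:**
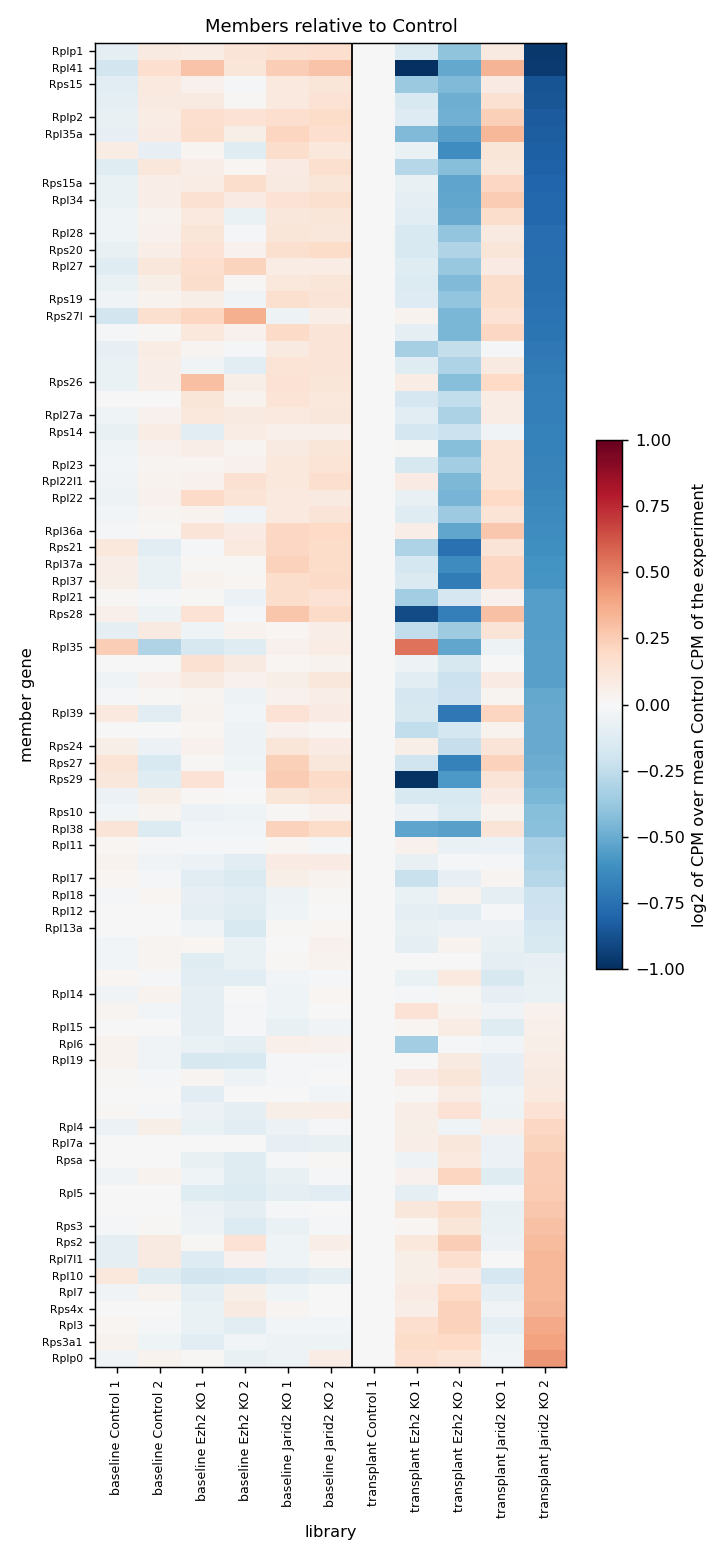
Level of each member in each library relative to the Control mean of its experiment (log2 of the CPM ratio, color), with the 80 members of at least 10 CPM on average as rows, of which those named in the text are labelled, and the 11 libraries as columns. Baseline columns vary little, and in the second transplant Jarid2 KO library 58 of 80 members are below Control and 22 above.

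In transplant Jarid2 KO against Control, no member was called by edgeR or DESeq2 and none had an unadjusted p under 0.05, where edgeR called 0.315% of all genes and 8.42% had such a p. The median log2 difference was -0.19 over the members and 0.01 over all genes, and 16 of 82 differences were positive. That median joins 2 unlike libraries. Against the Control library, the first Jarid2 KO library had 48 of 80 members higher with a median of 0.063 on the log2 scale, and the second had 58 of 80 lower with a median of -0.51. Without replicate 1 the median was -0.63, and without replicate 2 it was 0.088. Each of these fits sets 1 Jarid2 KO library against 1 Control library and takes its spread from the 2 Ezh2 KO libraries alone, so a call in them rests on that pair. Rps15 (log2 difference -0.99, edgeR adjusted p 0.046) was called without replicate 1, where 0.888% of all genes were called, and no member was called without replicate 2, where 0.38% were. The members at an unadjusted p under 0.05 numbered 50 (61.0%) without replicate 1, where 15.4% of all genes had such a p, and 1 (1.22%) without replicate 2, where 7.04% did. Groups did not overlap in 3 members that were higher (37.4% of all genes) and 13 that were lower (24.2% of all genes).

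Within the second Jarid2 KO library the members did not move together. Rplp1 and Rpl41 were lowest against Control (-0.96 each), Rps15 was at -0.86, and Rplp0 was highest (0.44), with Rps3a1 at 0.41 and Rpl3 at 0.38. In all, 43 members were lower by over 0.5 and 11 were higher by over 0.25. Rplp0, Rplp1 and Rplp2 build the P-stalk, the flexible arm of the large subunit that recruits translation factors, and they went in opposite directions. Rplp0 was at 3793 CPM in Control, 4251 and 4176 CPM in Ezh2 KO, and 3715 and 5148 CPM in Jarid2 KO. Rplp1 was at 5440 CPM in Control, 4935 and 4107 CPM in Ezh2 KO, and 5777 and 2793 CPM in Jarid2 KO. Rplp2 was at 2982, 2728, 2141, 3518 and 1679 CPM in the same order. The library with the most Rplp0 thus held the least Rplp1 and Rplp2, and its partner replicate held the most Rplp1 and Rplp2 of the 5.

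Some members known for small proteins and some known for large ones were set side by side. Both lists were chosen after their values had been seen, from general knowledge of the proteins and with no measured length or length cut, so they carry no test and do not hold every small or large member. Of the members left out, Rpl7, Rpl8 and Rps4x were at 0.33, 0.25 and 0.34 on the log2 scale in the second Jarid2 KO library against Control and at -0.09, -0.12 and -0.03 in the first. The 9 small members (Rpl41, Rpl39, Rps29, Rps28, Rpl38, Rps21, Rps27, Rpl37a and Rpl37) took 2.85% of UMIs in transplant Control, 2.06% and 1.83% in Ezh2 KO, with 3.28% and 1.91% in Jarid2 KO. The 10 large members (Rpl3, Rpl4, Rplp0, Rpsa, Rpl5, Rpl6, Rps2, Rps3, Rps3a1 and Rpl7a) took 4.15% in Control, 4.27% and 4.54% in Ezh2 KO, with 4.02% and 5.10% in Jarid2 KO. The ratio of small to large was 0.686 in Control, 0.481 and 0.403 in Ezh2 KO, with 0.816 and 0.375 in Jarid2 KO. The second Jarid2 KO and both Ezh2 KO libraries were low, and the first Jarid2 KO library was high. At baseline the ratio was 0.555 and 0.50 in Control, 0.577 and 0.556 in Ezh2 KO, with 0.633 and 0.598 in Jarid2 KO, where the Jarid2 KO libraries were the 2 highest.

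**Figure D3:**
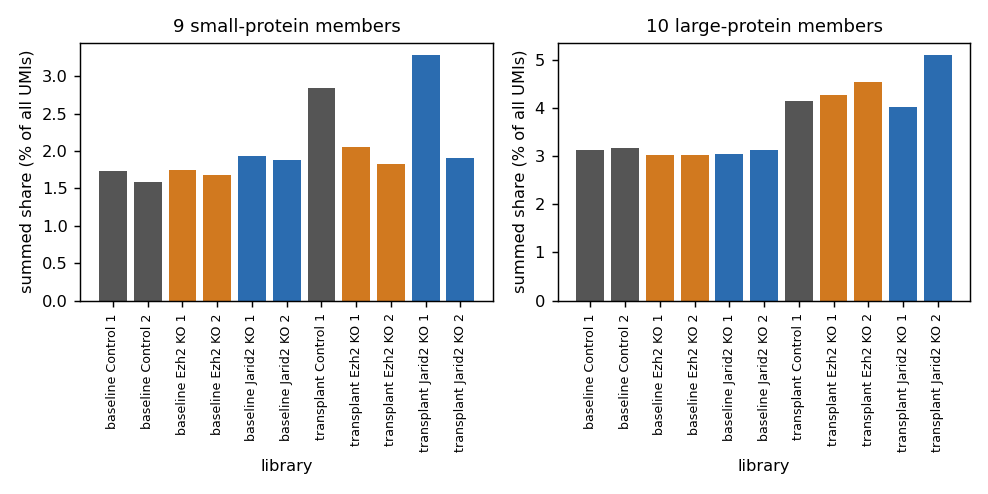
Share of UMIs (percent) taken by 9 members known for small proteins and by 10 known for large proteins in each library, 1 bar per library with color for genotype. In the second transplant Jarid2 KO library the small members are at 1.91% and the large members at 5.10%, against 3.28% and 4.02% in the first.

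Other values differed between the 2 transplant Jarid2 KO libraries as well. Of 75 genes of the mitochondrial respiratory chain, 55 were lower than in Control in the second library (median -0.58) and 35 in the first (median 0.017). Of all genes, 23.7% were lower in the second library and 55.0% in the first. The granulocyte marker sum was 16821 CPM in the second and 12652 CPM in the first library, against 10569 CPM in Control, with 6 or 7 of the 7 genes detected in each library of the series. Mitochondrial UMIs made up 4.68% and 4.21% of the kept cells' UMIs. The part of these in the members' split was not tested.

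In transplant Ezh2 KO against Control, no member was called by edgeR (4.79% of all genes were, 3.37% higher and 1.42% lower) or by DESeq2, with 3 members (3.66%) at an unadjusted p under 0.05 in edgeR and 17.2% of all genes. Without the first or the second Jarid2 KO library in the fit such members numbered 14 (17.1% against 19.9% of all genes) and 13 (15.9% against 19.8%). The median log2 difference was -0.26, against 0.0072 over all genes, and 15 of 82 differences were positive. By CPM, 47 members were lower in both Ezh2 KO libraries than in Control (25.3% of all genes) and 18 were higher (51.5% of all genes), the latter including Rplp0, Rpl3, Rps2, Rps3 and Rps4x. Rps28 was at 2508 CPM in Control and at 1349 and 1557 CPM in Ezh2 KO (log2 difference -0.87, SE 0.39, edgeR adjusted p 0.33). Rps29 was at 4935 CPM in Control and at 2483 and 3313 CPM in Ezh2 KO (-0.85, SE 0.35, edgeR adjusted p 0.28). When either Jarid2 KO library was left out of the fit, 4 members were called lower in Ezh2 KO, Rpl41 (-0.82), Rpl38 (-0.62), Rps29 (-0.86) and Rps28 (-0.87), where 6.83% and 6.81% of all genes were called, 2.39% and 2.41% lower. Both fits without 1 Jarid2 KO library set the same 2 Ezh2 KO libraries against the same single Control and take their spread from those 2 alone. Calls in them are thus not separate tests. The Control is a single library, whose own spread is not measured. Marker sums moved with this contrast. The 7 lymphoid markers summed to 1123 and 1090 CPM in Ezh2 KO and 434 CPM in Control, the 8 B-lineage markers to 539 and 418 CPM and 46.2 CPM, and the 7 granulocyte markers to 8088 and 8437 CPM and 10569 CPM. Every marker of the 3 lists was detected in these 3 libraries, and the part of these sums in the members' differences was not tested.

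In transplant Jarid2 KO against Ezh2 KO, 2 members were called, where 11.9% of all genes were called, 4.34% higher and 7.58% lower, and both were scarce copies. Rpl39l, the germ cell copy of the tunnel protein Rpl39, had 92 UMIs in Control, 85 and 48 in Ezh2 KO, with 230 and 146 in Jarid2 KO, and it was higher in Jarid2 KO than in Ezh2 KO (log2 difference 1.65, SE 0.29, edgeR adjusted p 0.019). Rpl3l had 49 UMIs in Control, 177 and 100 in Ezh2 KO, with 50 and 60 in Jarid2 KO, and it was lower in Jarid2 KO (-1.18, SE 0.23, edgeR adjusted p 0.026). In both genes the 2 groups did not overlap. Rpl39l also had more UMIs in females at baseline (89, 100 and 54 against 20, 27 and 33 in males of Control, Ezh2 KO and Jarid2 KO). With male cells only, neither gene was called (1.55 for Rpl39l and -1.10 for Rpl3l), and with the stricter cell filter Rpl39l was not (1.20). The Rpl3l call was lost without the first Ezh2 KO library (-0.94) and without the first Jarid2 KO library (-1.08). The B-lineage markers summed to 46.2 CPM in Control, 539 and 418 CPM in Ezh2 KO, and 78.9 and 99.6 CPM in Jarid2 KO, with 8 of 8 detected in each library and their part not tested. Without the second Jarid2 KO library 8 members were called higher and 1 lower, where 4.12% and 5.67% of all genes were. Without the first, 1 was called higher and 3 lower (Rps20, Rplp1 and Rps14), where 4.3% and 6.71% of all genes were. Groups did not overlap in 4 members that were higher (19.5% of all genes) and 5 that were lower (27.5% of all genes).

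The difference between the experiments in the genotype effect was tested as an interaction. No member was called in any of the 3 contrasts. Of all genes, 0% were called for the Jarid2 KO effect, 0.357% for the Ezh2 KO effect and 2.48% for the difference between the knockouts (0.804% higher and 1.67% lower). The members at an unadjusted p under 0.05 numbered 0, 2 and 0, against 5.09%, 9.09% and 16.1% of all genes. These counts depend on single libraries. Without the first transplant Jarid2 KO library they were 51 (62.2% of members against 12.5% of all genes), 20 (24.4% against 10.9%) and 28 (34.1% against 18.1%). Without the second they were 0 (against 4.11% of all genes), 20 (24.4% against 10.9%) and 20 (24.4% against 15.7%). With all libraries the 2 were Rps29 (-0.96, edgeR adjusted p 0.47) and Rps28 (-0.98, edgeR adjusted p 0.53), whose Ezh2 KO difference was lower after transplantation than at baseline. Mycn itself passed in the Ezh2 KO contrast (1.85, edgeR adjusted p 0.011). It also passed in the difference between the knockouts, where its log2 difference was -1.36 to -1.09 with 1 library left out at a time. The 2 experiments also differ in the Cell Ranger version in their file headers, and this and the transplant cannot be told apart.

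Members tied to disease or to other named roles were not called by edgeR in any genotype contrast with all libraries. Rps19, the gene most often altered in Diamond-Blackfan anemia, was at 3778 and 3971 CPM in baseline Control, 4038 and 3776 CPM in Ezh2 KO, and 4327 and 4225 CPM in Jarid2 KO, which was the highest group (log2 difference 0.16 from Control, edgeR adjusted p 0.42). After transplantation it was at 4881 CPM in Control, 4460 and 3718 CPM in Ezh2 KO, and 5502 and 2905 CPM in Jarid2 KO. Rps14, known from a deletion syndrome of human marrow, was at 5310 to 6047 CPM at baseline and 2818 to 4503 CPM after transplantation. Rpl11, a ligand of Mdm2, was at 3302 to 3393 CPM in all 6 baseline libraries and at 3396 to 4387 CPM after transplantation. Rpsa, also known as the laminin receptor, was at 4069 to 4475 CPM at baseline and at 6438 to 7966 CPM after transplantation, with the second Jarid2 KO library highest. Rpl35a was at 2255 to 2775 CPM at baseline and at 1866 to 4168 CPM after transplantation, where both ends were Jarid2 KO libraries. Rpl38, known for its part in the translation of Hox messenger RNAs, was at 1041 to 1345 CPM at baseline and at 1595 to 2540 CPM after transplantation, with both Ezh2 KO libraries (1613 and 1595 CPM) below Control (2327 CPM).

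Of the paralog pairs, 2 were expressed at comparable levels. Rps27l UMIs amounted to 18.4% and 28.6% of Rps27 UMIs in baseline Control, 26.6% and 30.3% in Ezh2 KO, with 18.8% and 22.3% in Jarid2 KO. The female library had the higher ratio in each genotype. After transplantation the ratio was 22.7% in Control, 26.6% and 26.5% in Ezh2 KO, with 21.4% and 19.2% in Jarid2 KO. Rpl22l1 UMIs amounted to 41.2% to 48.4% of Rpl22 UMIs and Rpl7l1 UMIs to 3.41% to 4.39% of Rpl7 UMIs over the 11 libraries. Ribosomal protein genes have many processed pseudogenes, and how reads shared with such copies were counted is not given in the sources used here, so the levels of scarce copies in particular are uncertain.

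Cells in the HSC gate (CD150 high, CD48 low) were compared with cells in the MPP4 gate (CD135 high, CD150 low) of the same 6 baseline libraries, with the library as a block. The HSC gate held 737 to 1132 cells a library and the MPP4 gate 2738 to 4206. HSC markers summed to 2197 to 2508 CPM in the HSC gate and to 1078 to 1636 CPM in the MPP4 gate, 7 of 7 lymphoid markers were lower in the HSC gate, and Mycn was at 74.2 to 124 CPM against 18.8 to 52.2 CPM. The lists hold Slamf1 (6.08), which encodes CD150, and Flt3 (-4.45), which encodes CD135. The gates were set on these 2 proteins, so these 2 genes are no separate check of them. Of 82 members, 20 were higher and 38 lower in the HSC gate, where 61% of all genes were called, 30.2% higher and 30.8% lower. With library totals in place of TMM factors the split was 34 higher and 27 lower (33.6% and 26.8% of all genes). With gates at the median signal it was 9 and 48 (29.7% and 28.3% of all genes), so the balance of directions depends on the scaling and on the gate.

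Rpl21 stood highest in the HSC gate of the members over 10 CPM. It was at 3764 and 3705 CPM in Control, 3890 and 3632 CPM in Ezh2 KO, and 4318 and 4127 CPM in Jarid2 KO in the HSC gate, against 2990 and 2916, 3082 and 2900, and 3335 and 3340 CPM in the MPP4 gate. It was higher in 6 of 6 libraries (log2 difference 0.30, SE 0.014, edgeR adjusted p 1e-08). Rpl5 (0.15), Rpl37a (0.14), Rps21 (0.13) and Rpl23 (0.12) were also among the highest. Rps26, a small-subunit protein beside the messenger RNA, was lowest, at 1257 to 1602 CPM in the HSC gate and 1639 to 1971 CPM in the MPP4 gate, and was lower in 6 of 6 libraries (-0.28, SE 0.03, edgeR adjusted p 9.3e-06). Rps2 (-0.22), Rps24 (-0.19), Rps27l (-0.19) and Rpl39 (-0.18) were also among the lowest. The scarce Rpl3l was lower (-2.46) and Rpl39l higher (1.71) in the HSC gate.

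**Figure D4:**
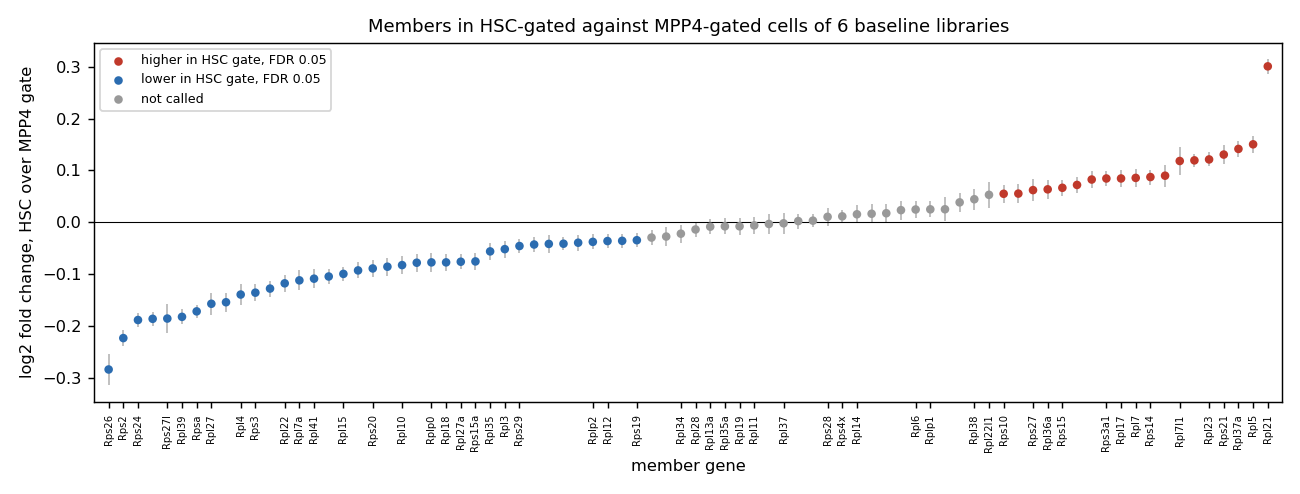
Log2 difference between the HSC and MPP4 gates of the 6 baseline libraries (vertical axis) for each member with a mean of at least 10 CPM (horizontal axis, in order of the difference), with bars of 1 standard error and color for the edgeR call. Members named in the text are labelled, from Rps26 (-0.28) at the left to Rpl21 (0.30) at the right.

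Cells with a Mycn UMI were then compared with cells without one in the same library, after every cell had been thinned to 5000 UMIs and shallower cells had been left out (295 to 742 cells a library). Mycn-positive cells made up 12.2% and 13.2% of cells in baseline Control, 13.1% and 15.9% in Ezh2 KO, with 19.9% and 23.8% in Jarid2 KO. After transplantation they made up 3.94% in Control, 15.3% and 14.6% in Ezh2 KO, with 8.84% and 9.99% in Jarid2 KO. Without thinning, the shares were 22.3% to 40.4% at baseline and 7.44% to 29.2% after transplantation, and a cell without a UMI may still express the gene. Classes of cells set by other markers were looked at as well. Whether their Mycn UMIs reflect expression or stray RNA from other cells was not tested. Of the cells with at least 1% of their UMIs from the granulocyte precursor markers (866 to 1703 cells in each transplant library), 0.157% to 0.841% would keep a Mycn UMI at 5000 UMIs, although their median depth of 21521 to 28892 UMIs exceeded the 12413 to 20005 UMIs of all cells. Of the cells with at least 0.2% of UMIs from B-lineage markers at baseline (138 to 1519 a library, with a median depth of 10709 to 15191 UMIs against 11050 to 13192 in all cells), 0% to 1.28% would. After transplantation such B-lineage cells numbered only 6 to 340 a library, and 0% to 2.56% would, with 1.82% in the 340 cells of the first Ezh2 KO library and 2.56% in the 38 cells of the second Jarid2 KO library. Of the cells with at least 0.2% of UMIs from erythroid markers at baseline (31 to 170 a library, with a median depth of 29251 to 41769 UMIs), 0.343% to 2.42% would. After transplantation 0 to 2 cells a library met that mark. The Mycn-positive share of each whole library was above that of each of these classes in the same library, apart from the first transplant Ezh2 KO library's class of 2 erythroid marker cells, whose share rests on too few cells to be read. After thinning, the members' share was higher in Mycn-positive cells in 10 of 11 libraries. Thinned, it was 24.8% against 24.3% and 24.98% against 24.81% in baseline Control, 25.3% against 24.3% and 25.2% against 24.3% in Ezh2 KO, and 26.3% against 25.7% and 26.4% against 25.7% in Jarid2 KO. After transplantation it was 31.9% against 31.4% in Control, 30.0% against 29.5% and 28.2% against 28.0% in Ezh2 KO, and 26.1% against 25.8% in the second Jarid2 KO library. In the first Jarid2 KO library both were 32.4%. Without thinning, the share was lower in Mycn-positive cells in both Control libraries and the second Jarid2 KO library at baseline (23.90% against 23.95%, 24.15% against 24.61% and 25.42% against 25.55%) and in both Jarid2 KO libraries after transplantation (31.84% against 32.35% and 25.54% against 25.65%), so the direction of this small difference depends on thinning.

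Single members moved in both directions between Mycn-positive and Mycn-negative cells. At baseline 17 members were higher and 22 lower, where 32.4% of all genes were called, 13.9% higher and 18.4% lower. After transplantation 4 were higher and 56 lower, where 39% of all genes were called, 16.8% higher and 22.2% lower. These splits turn with the scaling, since library totals gave 41 higher and 9 lower at baseline, and 27 higher and 20 lower after transplantation. Of all genes 15.1% and 14.9% were lower under that scaling, and the shares that were higher are not given here. After transplantation library totals moved the median of all genes to 0.11 and that of the members to 0.01. With TMM factors the members' median was -0.10 against 0.0097 over all genes after transplantation, and 0.0046 against 0.0079 at baseline. A change of scaling shifts all genes of a library alike, so it gives no separate reading of the members relative to all genes.

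Rps2, a core protein of the small subunit, fell in Mycn-positive cells of both experiments. It was at 3458 and 3846 CPM in Mycn-positive cells of baseline Control, 3671 and 4037 CPM in Ezh2 KO, and 3656 and 3778 CPM in Jarid2 KO, against 3732 and 4170, 3876 and 4414, and 3902 and 4087 CPM in Mycn-negative cells. It was lower in 6 of 6 baseline libraries (-0.14, SE 0.012, edgeR adjusted p 1.6e-08) and in 5 of 5 transplant libraries (-0.36, SE 0.024, edgeR adjusted p 2.1e-13). Rps27l (-0.24 and -0.44 at baseline and after transplantation), Rpl41 (-0.14 and -0.27) and Rplp0 (-0.09 and -0.23) were lower in both as well. Rps14 was higher in both, at 6027 and 6628, 6153 and 6905, and 6600 and 6677 CPM in Mycn-positive cells of the 3 baseline genotypes against 5610 and 6282, 5435 and 6216, and 6164 and 6109 CPM in Mycn-negative cells (0.09 at baseline and 0.10 after transplantation, edgeR adjusted p 9.3e-06 and 0.00025). Rpl21 (0.09 and 0.07), Rps27 (0.07 and 0.09) and Rpl17 (0.08 and 0.05) were the other 3 members called higher in both.

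**Figure D5:**
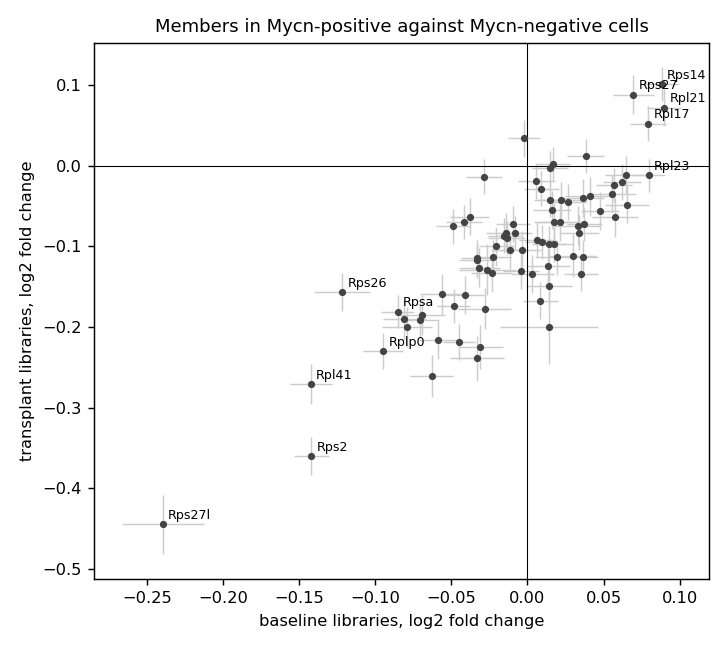
Log2 difference between Mycn-positive and Mycn-negative cells at baseline (horizontal axis) and after transplantation (vertical axis), 1 point per member with a mean of at least 10 CPM, with bars of 1 standard error. Rps27l (-0.24 and -0.44), Rps2 (-0.14 and -0.36) and Rpl41 (-0.14 and -0.27) lie lowest, and Rps14, Rpl21, Rps27 and Rpl17 lie above 0 on both.

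Mycn-positive cells were also other cells. In all 11 libraries their HSC marker sum was higher and their cycling marker sum lower, as in baseline Control replicate 1 (2010 against 1443 CPM and 336 against 746 CPM). Markers of other cell types differed as well. All 8 B-lineage markers were lower in Mycn-positive cells in both experiments (median log2 difference -3.90 at baseline and -2.66 after transplantation). Of the granulocyte markers, 5 of 6 tested were lower at baseline and 7 of 7 after transplantation (median -2.07 and -2.08), with Elane, a granule protease, at -4.97 and -2.66. Of the erythroid markers, 6 of 8 were lower at baseline (median -1.30) and 0 of 5 tested were called after transplantation (median 0.47). All 7 megakaryocyte markers were higher at baseline and 5 of 7 after transplantation (median 0.65 and 0.99). The part of these in the members' differences was not tested across the whole fraction. Within the HSC gate, 11 of 80 members were higher in Mycn-positive cells and none was lower, where 3.81% of all genes were called, 1.3% higher and 2.51% lower, Rps26 (0.10), Rps27 (0.09) and Rpl7 (0.08) leading. Within the MPP4 gate 2 were higher (Rps27 and Rpl17) and 14 lower, where 14% of all genes were called, 5.05% higher and 8.97% lower, Rps27l (-0.17), Rpl41 (-0.12) and Rps2 (-0.11) leading. Rps26 was lower in Mycn-positive cells over the whole fraction (-0.12) and higher within the HSC gate. These gate comparisons were added after the data had been seen.

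Genotype calls among other genes of ribosome production are read against the shares of all genes. At baseline these were 2.84% higher and 0.676% lower in Ezh2 KO against Control, and 1.47% higher and 4.39% lower in Jarid2 KO against Ezh2 KO. Of 36 ribosome biogenesis genes none was called against Control in either experiment, and 2 were lower in baseline Jarid2 KO than in Ezh2 KO, Emg1 (-0.30), a methyltransferase of ribosomal RNA, and Polr1d (-0.25), a subunit of RNA polymerases I and III. Of 29 translation factors none was called in a genotype contrast, and neither was Fau or Rack1, ribosomal protein genes that the symbol rule misses. Of 78 mitochondrial ribosomal proteins, Mrpl53 (0.29) and Mrps6 (0.27) were higher in baseline Ezh2 KO than in Control, and Mrpl20 (-0.32) and Mrpl53 (-0.25) were lower in Jarid2 KO than in Ezh2 KO. These counts are near the shares of all genes and say nothing particular of the lists. In Mycn-positive cells 13 of the 36 biogenesis genes were lower at baseline and 28 after transplantation, and none was higher, where 18.4% and 22.2% of all genes were lower and 13.9% and 16.8% higher. With library totals 12 were lower and 1 higher at baseline, and 17 were lower and 0 higher after transplantation, where 15.1% and 14.9% of all genes were lower. They included the nucleolar proteins Npm1 (-0.15 and -0.33), Ncl (-0.12 and -0.26) and Nhp2 (-0.24 and -0.55). Of the translation factors, 12 were lower and 2 higher at baseline, and 20 were lower and 1 higher after transplantation, and with library totals 6 were lower and 8 higher, and 10 lower and 5 higher, so their balance at baseline turns with the scaling. The helicase Eif4a1 was lower (-0.16 and -0.18) and its paralog Eif4a2 was higher (0.20 and 0.36). Of the mitochondrial ribosomal proteins 47 and 63 were lower and 1 was higher in each experiment, and with library totals 40 and 41 were lower and 1 higher. In the HSC gate against the MPP4 gate, 3 biogenesis genes were higher and 16 lower, 6 translation factors were higher and 12 lower, and 6 mitochondrial ribosomal proteins were higher and 43 lower, where 30.2% of all genes were higher and 30.8% lower. With library totals these were 4 and 12, 10 and 8, and 9 and 28 (33.6% and 26.8% of all genes). With gates at the median signal they were 3 and 15, 3 and 8, and 11 and 14 (29.7% and 28.3% of all genes). The balance for translation factors thus turns with the scaling, and that for mitochondrial ribosomal proteins depends on the gate.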

How the data were processed

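The authors deposited unnormalized UMI counts for every gene and barcode, made with Cell Ranger (7.2.0 at baseline and 6.1.2 after transplantation, per the file headers). The submitters' processing notes name Cell Ranger 3.1.0, Seurat 3.0, Partek and mm10, and intron handling is not given in the sources used here. Barcodes with at least 1000 UMIs, 500 genes and at most 10% mitochondrial UMIs were kept, and the highest Scrublet scores (scanpy 1.11.5, 0.8% per 1000 cells) were removed as doublets, 3.73% to 8.04%. Counts were summed per library, or per library and gate or Mycn status, and compared with edgeR 4.0.16 quasi-likelihood tests (R 4.3.3, two-sided, TMM, filterByExpr, Benjamini-Hochberg over all genes, threshold 0.05). Baseline fits had genotype and sex, transplant fits genotype, and within-library fits the library as block. The single transplant Control was assumed to vary like the knockout libraries. Depth was 69867274 to 127115974 UMIs a library. Baseline replicate numbers mark sex, and same-numbered libraries deviated together (r 0.62 to 0.80). DESeq2 1.42.0, other scalings, filters, gates and left-out libraries were alternatives. The text names, per contrast, up to 6 called members each way over 10 CPM (otherwise the 4 smallest p-values), paralogs, listed roles, and called genes of the lists. Some genes that this rule covers are not reported here. Cell classes by marker share of UMIs and first-listed promoter starts were added after seeing the data. The scripts were tested on simulated data. Members and lists were chosen with earlier results of these data known. The antibody libraries served for gates only, and CUT&Tag data (6 samples) are not analysed here.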

Additional observations from a re-analysis of the deposited data

How the results depend on the processing

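At baseline, the members called in Jarid2 KO against Control were 0, and 5 with DESeq2. In Ezh2 KO against Control the 1 call became 8 with DESeq2, 2 with no low-count filter, 0 with genes of at least 10 CPM, 0 without the sex term (no replicate block), and 0 within each of the HSC, MPP2, MPP3 and MPP4 gates. In Jarid2 KO against Ezh2 KO the 1 call became 4 with DESeq2, 2 with only the compared groups fitted, 0 at 10 CPM, 0 without the sex term (no replicate block), and 0 within the HSC, MPP2 and MPP4 gates. After transplantation, Ezh2 KO against Control gave 3 calls in place of 0 with only the compared groups. Jarid2 KO against Ezh2 KO gave 0 in place of 2 at 10 CPM, 1 with the stricter cell filter, 0 with male cells only, and 1 with the replicate block. The members called in the main genotype fits, Rpl3l and Rpl39l, lie under 10 CPM. The 10 CPM filter removes them in both experiments, so the loss of their calls there was fixed in advance. Within the HSC gate Rpl3l was at 0 to 0.18 CPM, too scarce to pass the low-count filter. The absence of its call in that gate was thus fixed in advance as well. Fewer members were also tested in the MPP2 gate than in the whole fraction, so the absence of calls there is not read as a loss. The transplant libraries share only a number (r 0.0278 over same-numbered pairs), which does not pair them. In baseline Jarid2 KO against Ezh2 KO, DESeq2 called 8.79% of all genes. Shares of all genes are not given here for fits without the low-count filter or sex term, or with only the compared groups. The same holds for the stricter cell filter, male cells only and the replicate block. Changes of the counts in those fits are not read as particular to the members.

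Between the HSC and MPP4 gates the 58 calls fell to 24 with no replicate block. Between Mycn-positive and Mycn-negative baseline cells the 39 calls were 23 with DESeq2, 11 within the HSC gate and 16 within the MPP4 gate. The split of higher and lower calls in the gates was 34 and 19 at 10 CPM and 17 and 31 with DESeq2. For Mycn status it was 8 and 37 at baseline with 8000 UMIs a cell and 10 and 13 with DESeq2, and after transplantation it was 3 and 62 with 8000 UMIs and 4 and 46 with DESeq2. For the fits without the block, at 10 CPM, at 8000 UMIs and with DESeq2, shares of all genes are not given here. These changes are therefore not read as particular to the members. The baseline share difference of Jarid2 KO from Ezh2 KO, 1.20 percentage points, was 1.5 as a mean over cells, and the transplant difference of Ezh2 KO from Control, -2.65, was -1.27 with no cell filter. The cause was not tested for any of these changes. The fits within single gates and the male-cell alternative were chosen after seeing the data.

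With 1 library left out at a time, calls ranged from 0 to 0 at baseline for Jarid2 KO against Control, 0 to 1 for Ezh2 KO against Control and 0 to 2 for Jarid2 KO against Ezh2 KO. After transplantation they ranged from 0 to 1, 0 to 4 and 1 to 9 for the same contrasts, and for the difference between experiments in Jarid2 KO against Ezh2 KO from 0 to 1. They ranged from 46 to 57 for the gates, 31 to 37 for Mycn status at baseline and 53 to 58 after transplantation. The share differences ranged from 0.891 to 1.45, -0.308 to 0.251 and 1.06 to 1.34 percentage points at baseline (1.17, -0.0287 and 1.20 with all libraries). After transplantation they ranged from -5.54 to 1.09, -3.37 to -1.93 and -2.89 to 3.74 (-2.22, -2.65 and 0.429), so the sign of both Jarid2 KO differences there depends on which library is kept. Groups hold 2 libraries, or 1 for the transplant Control, and the scarce copies Rpl3l and Rpl39l rest on 20 to 308 UMIs a library.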

Other observations

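The member Rpl35 had its own outlying library. It was at 1302 and 888 CPM in baseline Control, 980 and 1005 CPM in Ezh2 KO, and 1128 and 1154 CPM in Jarid2 KO. After transplantation it was at 2142 CPM in Control, 3116 and 1491 CPM in Ezh2 KO, and 2069 and 1469 CPM in Jarid2 KO, so that the first Ezh2 KO library stood above the other 4. The antibody features of the transplant libraries held 122 to 242 UMIs each, against 12480727 to 21502646 at baseline, so no surface gate was set there.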
